A study of Prunus persica with 8 samples.

Results

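A set of 96 peach genes was lower in flower buds at 200 chilling units than before chilling, and then stayed at about the new level up to 770 chilling units. The genes were chosen by their own values in 4 stages. The highest of the 4 values had to reach 5 FPKM (fragments scaled to the length of the feature and the size of the library). On the scale of log2(FPKM + 1), the value at 200CU had to lie at least 0.8 below that at 0CU, and the values at 200CU, 475CU and 770CU had to lie within a range below 0.5. The table held 22285 features. PRUPE_ gene identifiers were carried by 20839 of them, of which 12883 met the level limit outside the DAM locus (gene numbers 1G531100 to 1G531700), and the 96 members were 0.745% of these. Every difference between stages in these genes is therefore a description of how they were chosen and carries no test.

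RNA-Seq was carried out on flower buds of the cultivar Fantasia, a nectarine, sampled in one winter at 0, 200, 475 and 770 chilling units (0CU, 200CU, 475CU and 770CU), with 2 libraries a stage in the sample labels. All buds came from 10-year-old orchard trees, and at the stages the paper describes each replicate was a group of 3 to 4 plants, with the scales taken off the buds. The RNA was depleted of ribosomal RNA. Each stage was collected on a single day, 0, 18, 35 and 63 days after the first, so chilling cannot be told apart from calendar date, day length or weather.

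Flower buds of temperate fruit trees pass the winter in dormancy, and a bud in the deep phase does not open even in warm conditions until it has been through a sufficient period of cold. A chilling unit counts time spent at temperatures that are effective for this. The DAM genes, MADS-box transcription factors arranged in tandem on one peach chromosome, are the best known regulators of peach bud dormancy. Their locus was left out of the gene set. A whole bud holds several organs and cell types, so in these data fewer cells of a type and less RNA per cell cannot be told apart.

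The files do not pair the identifiers with gene names or functions, and 0 of them were found in the RefSeq table of peach genes. The members are therefore given by identifier, value and place in the gene numbering, without roles. None of the 6 genes that the paper names for flower buds was a member (0 of 6).

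The deposited table held 1 value per gene and stage. Nearly all features (21951 of 22285, 98.5%) could be split into 2 libraries, each with a whole number of fragments over one shared feature length, whose average is the deposited value. This succeeded for all 96 members. The libraries recovered in this way had effective sizes from 18051083 to 25374451 fragments. In each stage the larger is called library A and the smaller library B, since it is not known which is replicate 1. Whether the 2 libraries of a stage came from separate groups of trees is not stated for every stage, so the spread between them may be partly technical. RNA composition also moved with the stage: features with ENSRNA identifiers, which are annotated non-coding RNAs, took 42.5% of all FPKM before chilling (0CU), 30.5% in the 200CU stage, 35.0% in that of 475CU and 28.6% in the last. The part of this shift in the values below was not tested, and the size of the set under other scalings is given near the end.

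At 0CU the members covered a wide span of levels, from 5.17 to 354 FPKM. Their median was 18.5 FPKM before chilling and then 8.36 (200CU), 9.36 (475CU) and 9.03 (770CU). The median over all 12883 genes of the same minimum level was 14.5, 14.6, 14.6 and 14.3 FPKM in the same order. The members thus started above the median gene and ended below it, which the choice favours. By the limits 0CU was the highest stage of every member, so each reached 5 FPKM there, while other genes could reach it at any stage. Of the FPKM of all PRUPE_ features they held 0.901% at 0CU, and 0.428%, 0.448% and 0.442% in the later stages in order.

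**Figure D1:**
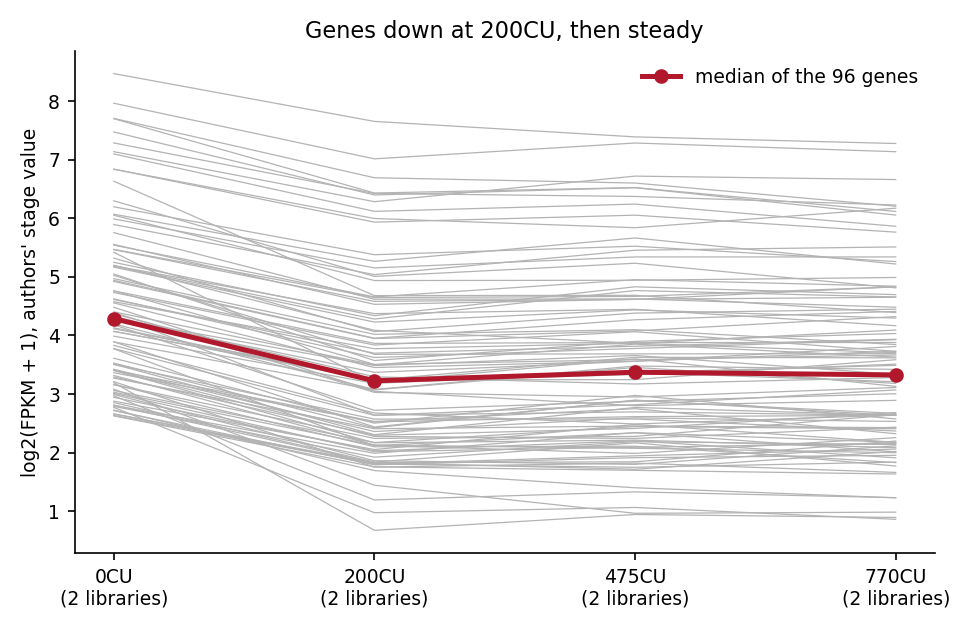
Level of each of the 96 genes at the 4 stages (grey lines, the authors' stage value as log2(FPKM + 1)) and their median (red). The median FPKM is 18.5 at 0CU and lies between 8.36 and 9.36 at the 3 later stages, and the gene of the highest level stays highest throughout.

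The first step had a median of -0.98 on the log2(FPKM + 1) scale over the members, against 0.0097 over all genes of at least 5 FPKM. Its quartiles were -1.14 and -0.87, and it ran from -2.52 to -0.80. Most members were close to the limit that chose them: 53 differed by less than 1, 43 by 1 or more, 8 by 1.5 or more and 2 by 2 or more. In FPKM, the median member kept 47.1% of its 0CU level at 200CU, and the extremes were 7.29% and 56.7%.

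Over all genes, 2.25% were lower at 200CU by 0.8 or more and 78.6% varied by less than 0.5 over the later stages, the 2 limits that all 96 members met by choice. Of the 290 genes past the first limit, 96 (33.1%) were members. The other 194 had about the same first step, with a median of -1.05, but were outside the range limit. Of these, 89 were higher at 770CU than at 200CU by 0.5 or more and 68 were lower by 0.5 or more. The reverse rule, higher at 200CU and then steady, took in 169 genes. On either side of each limit the nearest values were close together. The member nearest the step limit stood at -0.801 and the next gene outside at -0.795. For the range these values were 0.493 and 0.506, and for the highest level 5.17 and 4.90 FPKM. Membership also turned on single libraries. With library B of 0CU left out the same limits took in 152 genes, of which 84 were among the 96. With library A or library B of 200CU left out they took in 90 and 133 genes, with 66 and 69 of the 96.

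**Figure D2:**
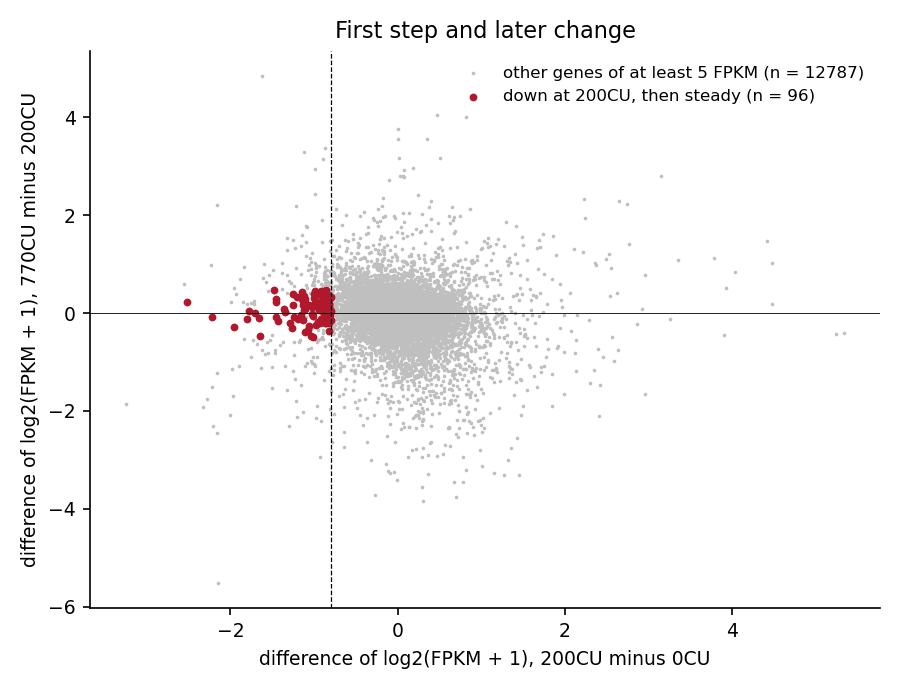
Difference from 0CU to 200CU (horizontal) against the difference from 200CU to 770CU (vertical), both of log2(FPKM + 1), for 96 members (red) and 12787 other genes of at least 5 FPKM (grey). The members lie left of the dashed line at -0.8 and between -0.49 and 0.47 on the vertical axis, because the limits placed them there, while the other genes left of the line spread far above and below.

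Over the 3 later stages the members had a median range of 0.29, against 0.26 over all genes. The range was below 0.1 in 6 members, below 0.2 in 26, and 0.4 or more in 24. The value at 475CU was above that at 200CU in 78 members and below it in 18. The median difference was 0.12, against 0.0083 over all genes. From 475CU to 770CU the median difference was -0.058, against -0.011 over all genes, with 41 members higher and 55 lower. In 48 members 475CU was the highest of the 3 later values, 30 members had a higher value at each later step, 7 had a lower value at each, and in the other 11 the value of 475CU was the lowest.

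At 770CU the level was above that at 200CU in 60 members and below it in 36. The median difference was 0.12, against -0.0030 over all genes. The rule asked for a low value at 200CU, which favours higher values later. Higher and lower genes were not counted over all genes, so nothing is read from these counts or those of the later steps. All 96 were still below 0CU, by a median of -0.89 on the log2 scale. The median member stood at 49.4% of its 0CU level at 770CU, and the highest at 76.3%.

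Of the 10 members of 100 FPKM or more at 0CU, 3 were higher at 770CU than at 200CU, with a median difference of -0.23. In the 33 members of 20 to 100 FPKM 22 were higher, with a median of 0.13, and in the 53 members of 5 to 20 FPKM 35 were higher, with a median of 0.12. On the log2(FPKM + 1) scale the first step had medians of -0.93, -0.95 and -0.995 in the 3 classes, in the same order. In FPKM, the median member of each class kept 52.3%, 50.1% and 43.1% of its 0CU level at 200CU. The pseudocount makes the first of these measures too small in genes of low level. The difference between classes was not tested, and these counts carry the same limit.

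The recovered libraries give the single values behind the first step. In 94 of the 96 members both libraries of 200CU were below both libraries of 0CU, a pattern found in 30.1% of all genes recovered. In 92 members all 6 later libraries were below both libraries of 0CU, against 17.6% of all genes. Since the members were chosen on the means of these libraries, nothing is read from these counts.

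**Figure D3:**
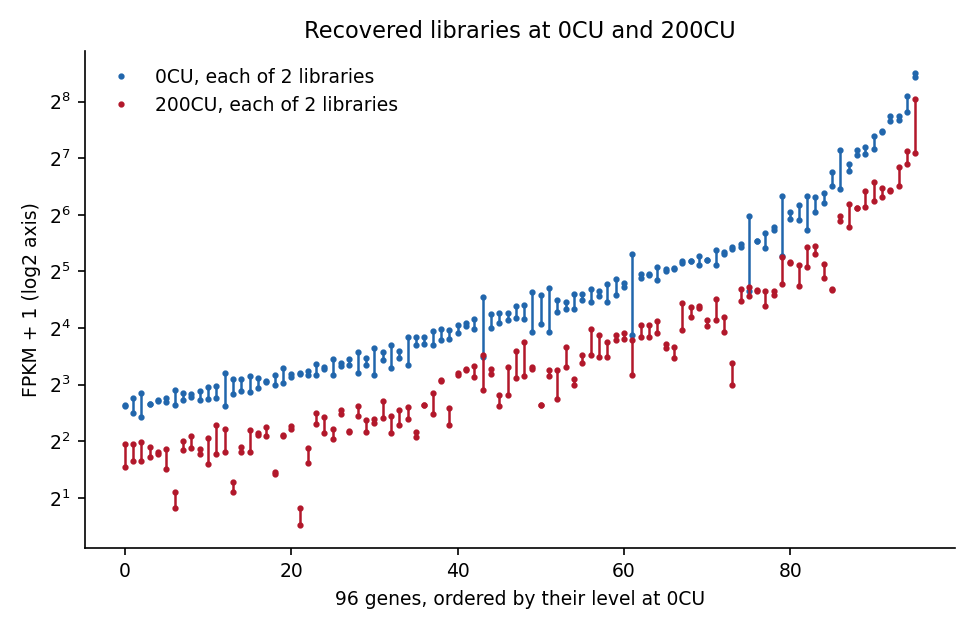
Level of each of the 96 genes in each recovered library of 0CU (blue) and 200CU (red), as FPKM + 1 on a log2 axis, with the genes ordered by their level at 0CU and the 2 libraries of a stage joined by a line. The red pair lies below the blue pair in 94 of 96 genes, and a few blue pairs are as long as the step itself.

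The members that overlapped were PRUPE_6G077300 and PRUPE_3G312200, given here after their values had been seen. PRUPE_6G077300 had 22.5 and 10.2 FPKM in libraries A and B of 0CU, and 6.53 and 10.5 FPKM at 200CU. PRUPE_3G312200 had 62.5 and 24.2 FPKM in the libraries of 0CU, and 25.3 and 22.8 in those of 200CU. In both genes library A of 0CU carried the difference, and library B was at the level of 200CU.

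Later libraries also reached into the range of 0CU in PRUPE_4G039400 and PRUPE_2G251200. PRUPE_2G251200, also given after its values had been seen, had 52.5 and 79.9 FPKM in the libraries of 0CU and 32.9 and 42.1 in those of 200CU. At 475CU its libraries were far apart, at 63.1 and 36.3 FPKM, and at 770CU they had 42.7 and 29.9 FPKM. The higher library of 475CU was above the lower library of 0CU.

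Within a stage the 2 libraries of the members were somewhat further apart than those of all genes. The members were chosen on means of these libraries, and were shorter than all genes and lower after 0CU. The part of this in the spread was not tested. The median absolute difference between library A and library B on the log2 scale was 0.17 in members and 0.13 in all genes at 0CU, and 0.21 and 0.13 at 200CU. It was 0.11 and 0.084 at 475CU, and 0.12 and 0.088 at 770CU. At 200CU library B was the higher one in 60 of 96 members (62.5%) and in 48.4% of all genes. At 475CU library B was higher in 34 members (35.4%) and in 51.3% of all genes. Since A and B only name the larger and the smaller library of a stage, these shares cannot be compared between stages. The fragments behind a value ran from 8 to 9615 in a library, and 88 members had at least 50 in every library.

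A limma fit on the recovered libraries of all 4 stages sets the members beside all features. Limma is a linear model with a spread estimate shared between genes, and the call was a Benjamini-Hochberg adjusted p below 0.05. Of the 18309 features tested, 10.9% were called lower at 200CU than at 0CU, 90 of the 96 members among them. With only the 2 stages in the fit, 4.3% of features and 82 members were called. From 200CU to 770CU 12.7% of features were called higher, with 9 members, and 12.9% lower, with 6 members. With only these stages in the fit 10.2% of features were called higher, with 5 members, and 11.0% lower, with 1 member. The rule had used both contrasts, so the member counts describe the set and test nothing about it.

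Both libraries of 770CU were above both of 200CU in 39 of 96 members (33.7% of all genes) and below both in 16 (33.9% of all genes). The members were chosen on the means of these libraries. The rule asked for a low value at 200CU, which favours higher values later, and held the later range below 0.5. Nothing is therefore read from these counts.

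PRUPE_4G030400 had the largest first step. It had 8.13 and 8.19 FPKM in libraries A and B of 0CU, 0.760 and 0.430 in those of 200CU, 0.829 and 1.02 in those of 475CU and 0.865 and 0.850 in those of 770CU. All 6 later libraries lay far below both of 0CU, where the gene had 599 and 529 fragments against 69 and 34 at 200CU. Its first step was -2.52 with a limma standard error of 0.13, and its level at 200CU was 7.29% of that at 0CU.

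PRUPE_5G102600 came next, with a first step of -2.22. It had 42.4 and 41.3 FPKM in the libraries of 0CU, 6.97 and 9.45 in those of 200CU, 10.8 and 11.5 in those of 475CU and 8.02 and 7.49 in those of 770CU. The stages of 0CU and 200CU did not overlap, and the libraries of 475CU were a little above those of the neighbouring stages. Its later range of 0.47 was close to the limit.

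PRUPE_2G183100 and PRUPE_1G237200 were lowest at 770CU relative to 200CU. PRUPE_2G183100 had 213 and 203 FPKM in the libraries of 0CU, 90.4 and 114 in those of 200CU, 96.8 and 95.5 in those of 475CU and 74.2 and 71.5 in those of 770CU. Its first step was -1.01 and its later difference -0.49, with both libraries of 770CU below both of 200CU. Without library B of 200CU the later difference was -0.31. PRUPE_1G237200, a gene of low level, had 5.47 and 5.77 FPKM in the libraries of 0CU, 1.83 and 2.64 in those of 200CU, 1.82 and 1.46 in those of 475CU and 1.63 and 1.06 in those of 770CU. Its later difference was -0.47, and it rested on 78 and 98 fragments at 200CU and 68 and 38 at 770CU. It was -0.27 without library B of 200CU and -0.30 without library B of 770CU.

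PRUPE_4G039400 and PRUPE_3G208200 were highest at 770CU relative to 200CU. PRUPE_3G208200 had 32.0 and 32.2 FPKM in the libraries of 0CU, 10.1 and 11.7 in those of 200CU, 13.3 and 14.5 in those of 475CU and 14.1 and 16.6 in those of 770CU. Its first step was -1.48 and its later difference 0.46, and no library of 200CU reached those of 475CU or 770CU. Its level at 770CU was still 47.9% of that at 0CU.

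PRUPE_4G039400 was much less even. It had 79.2 and 37.8 FPKM in the libraries of 0CU, 26.5 and 37.2 in those of 200CU, 42.4 and 43.3 in those of 475CU and 39.2 and 50.01 in those of 770CU. Library B of 0CU was below all libraries of 475CU and 770CU and nearly level with library B of 200CU. Its first step was -0.85 with both libraries, -0.24 without library A of 0CU and -1.29 without library B of 0CU. Its later difference was 0.47, and it was 0.25 and 0.73 without library A and library B of 200CU, and 0.29 without library B of 770CU. This gene had the highest share of its first level at 770CU among the members, 76.3% of the mean of 2 unequal libraries.

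PRUPE_4G039100 had the highest level at 0CU, with 346 and 361 FPKM. Its libraries of 200CU had 136 and 265, those of 475CU 206 and 128, and those of 770CU 142 and 166. All later libraries were below those of 0CU, yet the 2 libraries of 200CU, and those of 475CU, were far apart. Its first step was -0.82, but -0.42 without library A of 200CU, short of the limit of the set, and -1.37 without library B of 200CU. Its later difference was -0.38, and -0.78 and 0.18 without the same libraries. It was also the shortest member, with a recovered length of 186 bases, and had 643 and 1089 fragments at 200CU.

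Members were shorter than genes in general. The length recovered from the values, the shortest one that gave whole fragments in all libraries, can be a fraction of the length the authors used, and the fragment numbers would then be too low by the same factor. It had a median of 1602.5 bases in members (186 to 5348) and 2272.5 bases in all genes recovered. Of the 96 members, 73 were below the latter. With all genes split by length into 4 classes of nearly equal number, 1.40% of the shortest class were members (44 genes), 0.923% of the next (29), 0.445% of the third (14) and 0.287% of the longest (9). The same order held for all genes that were lower at 200CU by 0.8 or more, whether or not they stayed steady: 4.52%, 2.48%, 1.18% and 0.764% of the 4 classes. The 194 such genes that were not members had a median length of 1438 bases. The order by length was thus found in the genes with a large first step as a whole.

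By the chromosome in the identifier the members were spread over all 8 chromosomes. Chromosome 1 had 21, chromosomes 3, 2 and 6 had 14, 12 and 12, chromosomes 4 and 5 had 11 and 10, and chromosomes 7 and 8 had 8 each. Their share of the genes of at least 5 FPKM ran from 0.575% on chromosome 7 to 0.950% on chromosome 3.

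Some members stood next to each other in the order of the gene numbers. A direct neighbour that was also a member was found for 6 of 96 members (6.25%) and for 0.907% of the other genes of at least 5 FPKM. Within 5 features, 16 members (16.7%) had another member nearby, and 4.40% of the other genes had one. These 16 formed 7 stretches, 6 pairs and 1 group of 4. The genes directly next to a member that were not members themselves (116 of at least 5 FPKM) had a median first step of -0.072, and 5 of them (4.31%) were lower by 0.8 or more, against 2.25% of all genes. Whether neighbouring genes shared reads, through similar sequence or overlapping ends, was not tested.

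The group of 4 was on chromosome 7 and is described because it was the longest stretch, after its values had been seen. PRUPE_7G107400 had 38.4 and 39.5 FPKM in the libraries of 0CU, 17.3 and 14.2 in those of 200CU, 20.2 and 19.5 in those of 475CU and 22.5 and 19.1 in those of 770CU. PRUPE_7G107600 had 31.9 and 31.2 FPKM in the libraries of 0CU, 12.1 and 11.5 in those of 200CU, 11.9 and 11.9 in those of 475CU and 12.2 and 11.6 in those of 770CU. The second was among the flattest members, with a later range of 0.011, while the first was higher by 0.38 at 770CU than at 200CU.

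PRUPE_7G107800, the lowest of the 4, had 8.94 and 8.63 FPKM in the libraries of 0CU, 4.39 and 3.43 in those of 200CU, 4.38 and 4.27 in those of 475CU and 6.12 and 4.73 in those of 770CU. PRUPE_7G107900 had 26.8 and 25.5 FPKM in the libraries of 0CU, 14.1 and 13.1 in those of 200CU, 15.0 and 12.4 in those of 475CU and 14.8 and 12.7 in those of 770CU. In all 4 genes every later library was below both libraries of 0CU.

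Between these members lay PRUPE_7G107700, which had the largest first step of the stretch. It had 41.3 and 39.7 FPKM in the libraries of 0CU, 13.3 and 11.8 in those of 200CU, 18.0 and 18.9 in those of 475CU and 22.9 and 19.4 in those of 770CU. It was not a member, because after a first step of -1.61 it varied by 0.71 over the later stages. PRUPE_7G107500 was under 1 FPKM at all 4 stages. So 5 of 6 features in a row were lower at 200CU by 0.8 or more. The next gene, PRUPE_7G108000, had 1.92 FPKM at 0CU and 0.989 FPKM at 200CU, a difference of -0.56 at a level below the limit. The pseudocount of 1 makes differences at such low levels come out too small. The same holds for PRUPE_7G107500, which had 0.459 FPKM at 0CU and 0.176 FPKM at 200CU from few fragments, a difference of -0.31.

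**Figure D4:**
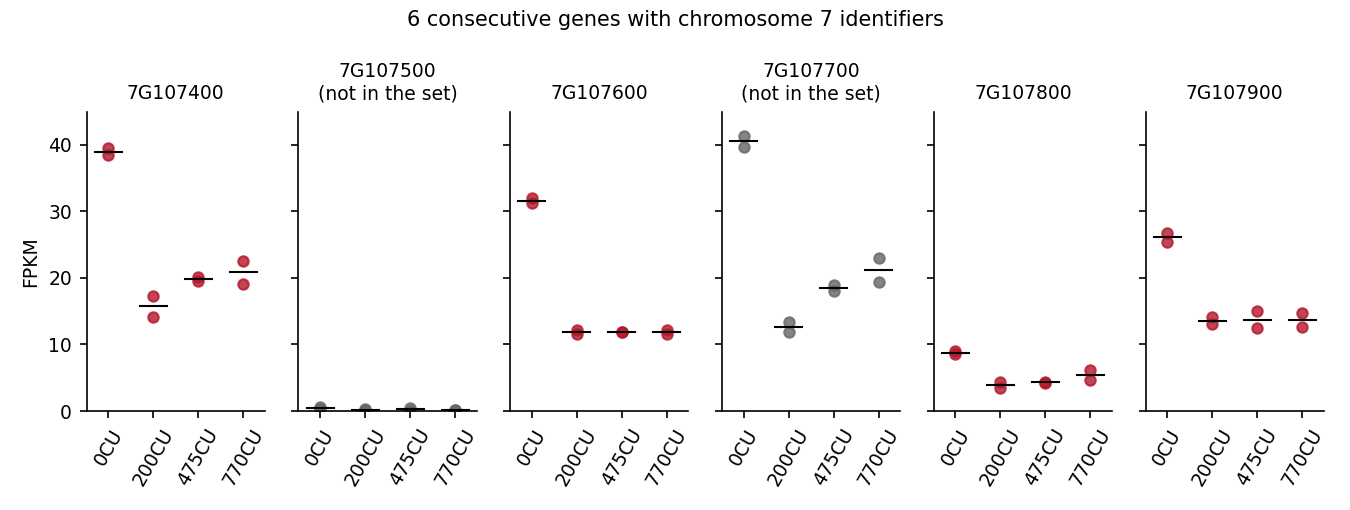
FPKM of 6 consecutive genes with chromosome 7 identifiers at the 4 stages, with each recovered library as a point and the authors' stage value as a bar (members red, other genes grey). In the 5 genes above 1 FPKM both points of 0CU are above all later points, and only PRUPE_7G107600 and PRUPE_7G107900 have later bars at one height.

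The pairs were of mixed size and tightness. On chromosome 2, PRUPE_2G319300 had stage values of 11.2, 4.67, 6.87 and 4.96 FPKM and its direct neighbour PRUPE_2G319400 had 7.94, 3.29, 3.31 and 2.56 FPKM from 0CU to 770CU. Their first steps, -1.11 and -1.06, were nearly the same. On chromosome 3, the direct neighbours PRUPE_3G312000 and PRUPE_3G312200 had first steps of -0.84 and -0.82, but the libraries of 0CU were close together in the former (59.9 and 65.2 FPKM) and far apart in the latter. PRUPE_4G039100 and PRUPE_4G039400, the gene of the highest level and the gene of the largest later gain, lay within 5 features of each other on chromosome 4, and both had widely spaced libraries.

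The member PRUPE_4G205000 lay directly beside a gene that the paper names. Ubiquitin is a small protein that marks other proteins for breakdown, and its genes are commonly used as references in real-time PCR. The ubiquitin gene UBQ (PRUPE_4G204900), which the paper uses in this way in fruit, was not a member. It had 99.1 and 70.7 FPKM in the libraries of 0CU, 35.7 and 49.5 in those of 200CU, 66.9 and 72.5 in those of 475CU and 90.0 and 73.8 in those of 770CU. It had a first step of -0.98, equal to the median member, but was higher by 0.93 at 770CU than at 200CU.

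The member PRUPE_4G205000, its neighbour in the gene numbering, had 201 and 213 FPKM in the libraries of 0CU, 84.4 and 86.3 in those of 200CU, 96.3 and 85.8 in those of 475CU and 67.0 and 69.9 in those of 770CU. Its first step was -1.27 and its level at 770CU was 33.0% of that at 0CU. Both genes were lower at 200CU than at 0CU, by first steps of unlike size (-0.98 in UBQ and -1.27 in PRUPE_4G205000). At 770CU UBQ was back near its first level and PRUPE_4G205000 was at its lowest. The pair was singled out after the values had been seen, and the difference between the 2 genes was not tested.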

How the data were processed

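Per the labels, RNA of flower buds was depleted of ribosomal RNA and sequenced as paired 150-base Illumina reads. The submitters' processing notes name Trimmomatic 0.39, HISAT2 and featureCounts. The genome build and annotation of the RNA-Seq are not given in the sources used here. The authors deposited 1 table of FPKM with 1 column per stage and no column was left unused (0). Members were found on log2(FPKM + 1) with a pseudocount of 1, so that differences of genes with low values come out too small. The set and its limits were chosen with earlier results of these data known.

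After the file had been seen, lengths from 30 to 20000 were tried for each feature, and the shortest was taken at which all 4 values were averages of 2 libraries with whole fragments, if chance gave at most 0.01 such lengths. Rebuilt values above 1 FPKM were within a relative 5.0e-10 of those deposited. Of 2000 features shifted by up to 1e-06, 7 were solved, against 1966 of them unshifted. All 3000 features simulated from the lengths and fragments of solved features were solved with their true values. The library sizes were given in this simulation, so it did not check how they were estimated, nor the features that were not solved. How the authors set the library sizes is not known.

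Limma (version 3.58.1, R 4.3.3, with trend and Benjamini-Hochberg adjustment) was run on recovered features that reached 1 FPKM in 2 or more libraries. Its p-values measure only the spread between 2 libraries a stage. The genes named are the 2 largest first steps, the 2 largest later differences in each direction and the highest level at 0CU. Others are named as chosen after seeing the values. No identifier matched the 26412 RefSeq genes (assembly Prunus_persica_NCBIv2), so planned lists by function were void and no positions or sequences are given. Alternatives covered the pseudocount, level filter, scaling, limits, libraries left out and limma settings. Python 3.11.15, numpy 2.4.6 and numba 0.67.0 were used.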

Additional observations from a re-analysis of the deposited data

How the results depend on the processing

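Of the values that answer a comparison, 64 stayed close to the reported one and 12 moved. Of the values of named genes, 169 stayed close and 27 moved. The difference from 200CU to 770CU changed sign without library B of 200CU in PRUPE_4G039100 (-0.38 to 0.18) and PRUPE_5G102600 (-0.073 to 0.13). In the latter it also did so with stages rescaled to the same total over all features (0.016). The other values kept their sign. The number of genes within the limits was 96. With stages rescaled to the same total over all features (TPM) it was 41, with 34 of the 96 among them. With the total taken over PRUPE_ features only it was 117 (92 of the 96). It was 93 (93 of the 96) with stages rescaled by the median ratio and 113 (95 of the 96) with quantile normalization. It was 43 with a step limit of 1 and 455 with a step limit of 0.5. A range limit of 0.3 gave 50, and 0.8 gave 174. Leaving out each library in turn gave 87 to 152. The median first step, -0.98, was -0.73 with TPM, -1.19 with the step limit of 1, -0.62 with that of 0.5, and -1.11 to -0.94 without single libraries. TPM moved the median of all genes to 0.24, and relative to it the 96 genes stood at -0.97, against -0.99 as reported. The median difference from 200CU to 770CU was 0.049 to 0.14 without single libraries. All 96 were lower at 200CU under each scaling, pseudocount and library left out, a sign their choice nearly fixed, and the smallest first step was -0.0050 without library A of 0CU and -0.42 without library A of 200CU. With only the 2 stages compared in the limma fit, calls over all features changed from 4484 to 1951 (0CU to 200CU) and from 568 to 35 (200CU to 475CU). Members near each other were 6 as direct neighbours and 16 at most 5 features apart. No paired analysis was possible because neither the columns nor the recovered libraries carry replicate numbers. The first step of PRUPE_4G030400, from few fragments at 200CU, was -3.57 at a pseudocount of 0.1 and -2.52 as reported.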

Other observations

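The same limits on level, step and range were also met by features outside the PRUPE_ genes. Of 268 ENSRNA features of at least 5 FPKM, 6 met them (2.24%), and of 256 XLOC_ features, loci assembled outside the annotation, 2 did (0.781%). ENSRNA050003686 had 193 and 237 FPKM in the libraries of 0CU, 66.0 and 71.2 in those of 200CU, 92.1 and 78.6 in those of 475CU and 65.7 and 65.8 in those of 770CU. Its libraries of 0CU were far above all later ones.

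XLOC_022893 had 25.1 FPKM in library A of 0CU but 0.852 FPKM in library B, so its difference of -2.74 to 200CU rested on a single library. At 200CU it had 2.05 and 0.130 FPKM. XLOC_016202 had 247 and 119 FPKM at 0CU and 147 and 55.8 at 200CU. In both features library A was the higher one at all 4 stages, though A is only the larger library of each stage and need not be the same replicate. Their libraries of 0CU and 200CU overlapped. These features were named after their values had been seen.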
